A study of Homo sapiens with 8 samples.

Results

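The enzymes that build chondroitin sulfate were followed over 8 expression arrays of 2 human chordoma cell lines. The set holds 10 genes, XYLT1, XYLT2, CSGALNACT1, CSGALNACT2, CHSY1, CHSY3, CHPF, CHST3, CHST11 and PAPSS2, out of 22395 genes that the array names through a probe set with 1 symbol. Each of the 10 has 1 such probe set, and all 10 are among the 16986 genes tested, those that exceeded 2.57 (log2, the median deposited value) on 1 array or more. CSGALNACT1 lay above it on 5 arrays and the others on all 8. The groups were MUG-Chor1 cells given TNF-α (1 array), MUG-Chor1 controls (3 arrays), U-CH1 cells given TNF-α (1 array) and U-CH1 controls (3 arrays). TNF-α, a cytokine of inflammation whose receptors activate NF-kB, was given as human recombinant protein at 10 ng/mL, in 3 additions over 1 week. Chordoma is a rare bone tumour thought to arise from notochord remnants, each line comes from a single tumour, and both were grown as monolayers on gelatin in medium with serum, controls included.

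Chondroitin sulfate is a chain of alternating glucuronic acid and N-acetylgalactosamine, carried by proteoglycans such as aggrecan, the main swelling component of cartilage and notochord-type matrix. A xylosyltransferase places xylose on a serine of the core protein, a short linker is completed, an N-acetylgalactosaminyltransferase commits the linker to a chondroitin chain, and synthase complexes extend it. Sulfotransferases then add sulfate from the donor PAPS. The linker is shared with heparan sulfate, so xylosyltransferases serve both kinds of chain.

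Most of the known TNF targets checked were higher with TNF. Of 9 tested genes from a list of known TNF and NF-kB targets, 8 rose across both lines (limma, adjusted p under 0.05). Over all genes tested, 1.55% rose. Among the 8 were the adhesion molecule ICAM1, by a log2 of 3.26, and the NF-kB inhibitor TNFAIP3, by 3.21. The chemokine CCL2 and the adhesion molecule VCAM1 were also called. Each exceeded 2.57 on 1 of the 6 controls only, so that no size is given. The gene that did not pass was NFKBIA (0.93, limma, adjusted p = 0.294). It read 7.51 on the MUG-Chor1 TNF array, inside its controls (7.28 to 7.86). On the U-CH1 TNF array it read 8.17, against 5.87 to 6.45 on the U-CH1 controls. The mean of 10 chordoma and notochord markers, TBXT included, lay between 6.55 and 6.84 on the 6 control arrays. The mean does not show that each marker was present: S100B was below 2.57 on every U-CH1 control (1.94 to 2.32). Controls of one line correlated at r of 0.959 to 0.981 over the genes tested; the TNF arrays correlated with their own controls at 0.930 to 0.947. MUG-Chor1 controls 1 and 2 were the most alike pair (0.981), with control 3 further off (0.960 and 0.959). There is 1 TNF array a line, so a TNF effect in a line rests on 1 sample whose spread is assumed to be that of the controls. Separate cultures are not stated for the controls, so the p-values reflect the spread between samples that may be technical repeats.

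XYLT1, the xylosyltransferase that starts the linker, changed the most of the 10. It read 4.87 (log2) on the MUG-Chor1 TNF array, against 9.43, 9.60 and 9.31 on the MUG-Chor1 controls. On the U-CH1 TNF array it read 8.42, against 9.02, 8.52 and 8.62 on the U-CH1 controls. The MUG-Chor1 TNF value is far below every other array, while the U-CH1 TNF value is only just under its lowest control. In MUG-Chor1, XYLT1 fell by 4.58 ± 0.29 (log2, SE; 95% interval -5.22 to -3.94), a 23.9-fold decrease (limma, adjusted p = 4.07e-05), the 7th largest fall among the 16986 genes. In U-CH1 the difference was -0.30 (95% interval -0.94 to 0.34; limma adjusted p = 0.819), and a log2 fall of more than 0.94 lies outside that interval. The test of the difference between the lines gave -4.28 ± 0.41 (log2, SE, MUG-Chor1 minus U-CH1; limma, adjusted p = 0.00166). In these bulk samples, fewer cells that express a gene and less RNA per cell cannot be told apart. Both calls held when each control array was left out in turn, with XYLT1 between -4.65 and -4.51 in MUG-Chor1.

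XYLT2, the other xylosyltransferase, did not pass the test in either line. It read 5.89 on the MUG-Chor1 TNF array, against 5.48, 5.78 and 4.84 on the MUG-Chor1 controls. In U-CH1 it read 6.10 with TNF, against 5.77, 5.40 and 5.57 on the U-CH1 controls. Each TNF value is the highest of its line by a small margin. The difference was 0.52 in MUG-Chor1 (95% interval -0.27 to 1.31; limma adjusted p = 0.660) and 0.52 in U-CH1 (95% interval -0.27 to 1.32; adjusted p = 0.699). The TNF effects of the lines differed by -0.00 (95% interval -1.13 to 1.12).

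The promoter windows of XYLT1, CHSY3 and CHPF, which passed a TNF test, are shown with that of XYLT2, which did not, so that their letters can be set side by side. They are RefSeq sequences on GRCh38.p14, from 250 bases before the annotated start to 50 after it, 5′ to 3′ on the gene's strand, with base 251 as the start. Windows of 8 of the 10 genes were used (11 in all, since CHPF has 2 and CHST3 has 3). Those of CSGALNACT1 and of PAPSS2, which also passed a TNF test, were not used here. Capitals mark the GC box GGGCGG on either strand. The windows lie at chr16:17470911-17471210 (minus strand) for XYLT1, chr17:50345876-50346175 (plus strand) for XYLT2, chr5:129904215-129904514 (plus strand) for CHSY3 and chr2:219543760-219544059 (minus strand) for CHPF, the one of its 2 windows that holds a match.
XYLT1: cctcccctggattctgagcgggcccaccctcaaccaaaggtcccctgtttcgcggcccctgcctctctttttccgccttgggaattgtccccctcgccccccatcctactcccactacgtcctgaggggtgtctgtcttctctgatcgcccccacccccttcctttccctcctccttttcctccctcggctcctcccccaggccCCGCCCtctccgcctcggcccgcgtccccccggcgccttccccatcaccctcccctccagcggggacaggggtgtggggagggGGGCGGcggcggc
XYLT2: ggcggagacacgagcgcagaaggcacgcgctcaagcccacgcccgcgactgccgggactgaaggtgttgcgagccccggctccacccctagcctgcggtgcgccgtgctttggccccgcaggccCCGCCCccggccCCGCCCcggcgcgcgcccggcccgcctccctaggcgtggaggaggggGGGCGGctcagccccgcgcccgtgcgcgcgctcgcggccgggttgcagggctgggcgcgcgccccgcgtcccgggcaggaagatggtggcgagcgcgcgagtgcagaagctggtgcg
CHSY3: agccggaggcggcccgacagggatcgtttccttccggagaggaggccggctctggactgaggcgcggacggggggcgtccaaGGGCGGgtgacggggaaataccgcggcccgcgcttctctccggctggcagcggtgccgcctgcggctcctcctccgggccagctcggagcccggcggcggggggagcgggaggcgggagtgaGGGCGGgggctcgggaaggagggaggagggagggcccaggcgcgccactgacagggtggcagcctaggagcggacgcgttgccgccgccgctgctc
CHPF: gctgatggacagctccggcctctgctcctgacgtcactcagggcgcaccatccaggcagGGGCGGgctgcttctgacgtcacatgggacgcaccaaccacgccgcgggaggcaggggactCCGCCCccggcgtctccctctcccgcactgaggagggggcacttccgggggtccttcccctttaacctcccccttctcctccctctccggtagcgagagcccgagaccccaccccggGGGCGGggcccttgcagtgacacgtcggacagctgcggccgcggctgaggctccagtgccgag
All 4 windows are rich in G and C, at 70.0% in XYLT1, 79.3% in XYLT2, 76.3% in CHSY3 and 71.0% in CHPF, where the median over all 35116 windows is 58.7%. The GC box occurs in 9 of the 11 windows, in all 8 genes, and in 45.0% of all windows. The other motifs searched, on both strands, were less common: AP-1 (TGANTCA) matched in 1 of the 11 windows, in CHST3, and in 7.71% of all windows; the NF-kB motif matched in 2, both in CHST3, and in 11.3% of all windows; the SOX motif (ACAATG, 10.8%) and the T-box motif (TCACACC, 3.45%) matched in none of the 11. XYLT1 and CHPF both hold GC boxes and neither holds any of the other motifs searched, which is so for each of the 8 genes except CHST3. Whether any motif bears on the TNF differences was not tested. No match of one motif overlapped a match of another in the 11 windows. A match here is a stretch of letters, not a site.

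CSGALNACT1 and CSGALNACT2 add the first N-acetylgalactosamine. CSGALNACT1 read 2.28 on the MUG-Chor1 TNF array, under the median of all values, against 3.46, 3.60 and 3.72 on the MUG-Chor1 controls. On the U-CH1 TNF array it read 2.61, against 2.13, 2.92 and 1.69 on the U-CH1 controls. The MUG-Chor1 value is below its 3 controls, and the U-CH1 value is inside the range of its own. The MUG-Chor1 difference of -1.31 (limma, adjusted p = 0.149, and just under 0.05 without U-CH1 control 2) and the U-CH1 difference of 0.37 (adjusted p = 0.857) did not pass. CSGALNACT2 read 5.44 on the MUG-Chor1 TNF array, against 4.91, 5.08 and 5.06 on the MUG-Chor1 controls, and 6.02 on the U-CH1 TNF array, against 4.80, 6.06 and 5.64 on the U-CH1 controls. Its differences of 0.43 and 0.52 did not pass either (limma, adjusted p = 0.793 in MUG-Chor1 and 0.754 in U-CH1).

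CHSY1, CHSY3 and CHPF extend the chain, CHPF acting as a partner of the synthases. CHPF read 7.09 on the MUG-Chor1 TNF array, against 5.53, 5.89 and 5.69 on the MUG-Chor1 controls. On the U-CH1 TNF array it read 6.37, against 5.62, 5.16 and 5.97 on the U-CH1 controls. Both TNF arrays lie above all controls of their line. CHPF rose 2.12-fold across both lines (log2 1.08 ± 0.24, SE; limma, adjusted p = 0.0458), the only one of the 10 to pass that test. The call sits close to the threshold: it ended in 7 of 8 fits that left out 1 array, with log2 0.78 to 1.39 and adjusted p up to 0.421 without the MUG-Chor1 TNF array, and lasted only without U-CH1 control 3; it also ended without the filter and after quantile normalization (limma, adjusted p = 0.0554 and 0.0553). The effects in each line, 1.39 in MUG-Chor1 (adjusted p = 0.0562, or 0.0385 without U-CH1 control 2 and 0.0447 without U-CH1 control 3) and 0.78 in U-CH1 (adjusted p = 0.421), did not pass alone and did not differ beyond their error (0.60, 95% interval -0.44 to 1.64).

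CHSY3 read 3.46 on the MUG-Chor1 TNF array, against 5.04, 5.05 and 4.47 on the MUG-Chor1 controls. Its value in U-CH1 was 4.02 with TNF, against 4.12, 4.24 and 4.16 on the U-CH1 controls. It is below every control in both lines, by more in MUG-Chor1. It fell by 1.40 ± 0.30 (log2, SE) in MUG-Chor1, a 2.64-fold decrease (limma, adjusted p = 0.0335); the difference in U-CH1 was -0.16 (adjusted p = 0.933). The test between the lines did not pass (-1.24, adjusted p = 0.397). The MUG-Chor1 call ended in 5 of 6 fits that left out a control (adjusted p up to 0.107) and lasted without MUG-Chor1 control 3; with the 4 MUG-Chor1 arrays alone the adjusted p was 0.0977. CHSY1 read 4.82 on the MUG-Chor1 TNF array, against values between 4.97 and 5.10 on the MUG-Chor1 controls, and 5.51 on the U-CH1 TNF array, against 5.78, 5.44 and 5.42 on the U-CH1 controls. Its differences were small, -0.21 in MUG-Chor1 (95% interval -0.80 to 0.39) and -0.04 in U-CH1 (95% interval -0.63 to 0.55).

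CHST3 and CHST11 sulfate different carbons of N-acetylgalactosamine, and their TNF differences in MUG-Chor1 pointed opposite ways without passing. CHST3 read 5.64 on the MUG-Chor1 TNF array, against 6.50, 6.95 and 6.95 on the MUG-Chor1 controls. On the U-CH1 TNF array it read 6.28, against 6.29, 5.02 and 6.05 on the U-CH1 controls. CHST11 read 6.36 on the MUG-Chor1 TNF array, against 4.62, 4.89 and 5.79 on the MUG-Chor1 controls, and 4.67 on the U-CH1 TNF array, against 4.27, 3.81 and 4.45 on the U-CH1 controls. The MUG-Chor1 TNF array is under all 3 controls for CHST3 and over all 3 for CHST11. The differences in MUG-Chor1 were -1.16 for CHST3 (limma, adjusted p = 0.273) and 1.26 for CHST11 (adjusted p = 0.206). Without MUG-Chor1 control 3, the highest of its 3 controls, CHST11 passed at 1.60 (limma, adjusted p = 0.0226). In U-CH1 they were 0.50 and 0.49 (adjusted p = 0.795 for CHST3 and 0.791 for CHST11).

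PAPSS2 makes PAPS, the sulfate donor; loss of it causes a skeletal dysplasia in humans. It read 6.40 on the MUG-Chor1 TNF array, against 7.61, 7.61 and 8.21 on the MUG-Chor1 controls. For U-CH1 it was 7.44 with TNF, against 7.68, 7.43 and 7.72 on the U-CH1 controls. The MUG-Chor1 value is below all controls, and the U-CH1 value lies at the lower edge of its own. PAPSS2 fell by 1.42 ± 0.31 (log2, SE) in MUG-Chor1, a 2.67-fold decrease (limma, adjusted p = 0.0386), and differed by -0.18 in U-CH1 (adjusted p = 0.929). The difference between the lines did not pass (-1.24, adjusted p = 0.439). Its MUG-Chor1 call also ended in 5 of 6 fits that left out a control (adjusted p up to 0.0719), and lasted without MUG-Chor1 control 3; with the 4 MUG-Chor1 arrays alone the adjusted p was 0.101.

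**Figure D1:**
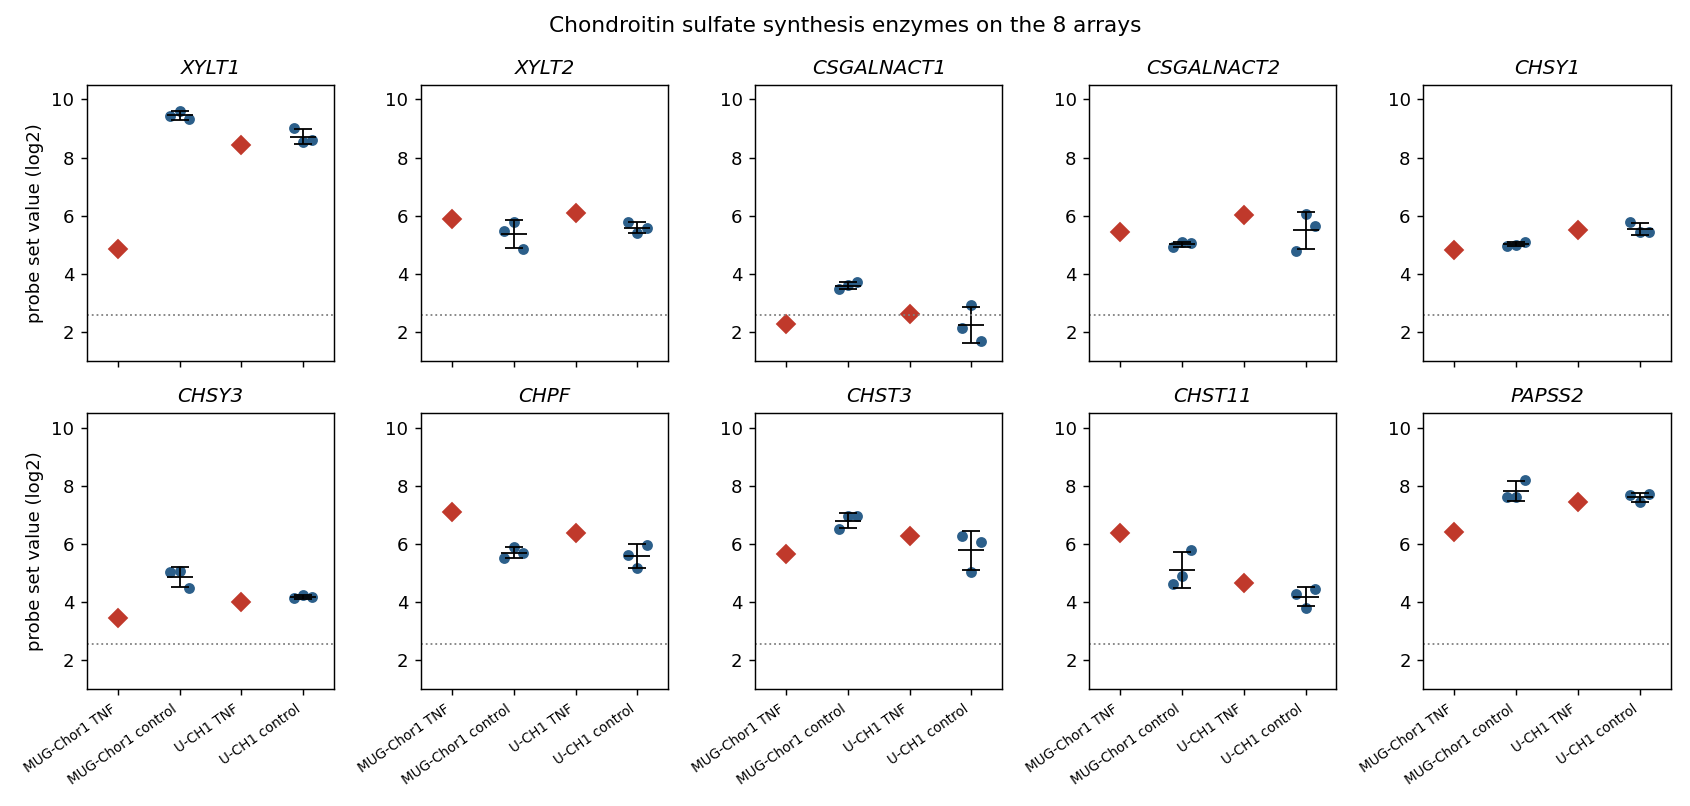
Each panel plots 1 enzyme gene, with the probe set value (log2) on the vertical axis for the TNF array (red diamond) and the 3 controls (blue dots, with mean and SD bars) of MUG-Chor1 and U-CH1; the dotted line is the median of all deposited values, 2.57. XYLT1 stands out on the MUG-Chor1 TNF array at 4.87, against 9.31 to 9.60 on its controls, and only CSGALNACT1 crosses the dotted line.

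In MUG-Chor1, 3 of the 10 enzymes fell with TNF (XYLT1, CHSY3 and PAPSS2) and 0 rose, where 1.41% of all genes tested fell, 1.47% rose and 2.88% changed in either direction (limma, adjusted p under 0.05); at an unadjusted p under 0.05, 5 were lower and 2 higher, against 12.6% of all genes in either direction. The median difference of the 10 was -0.68, beside 0.06 over all genes tested. The MUG-Chor1 TNF array lay above all 3 controls for 4 genes and below all 3 for 6, where these shares over all genes were 35.3% and 23.9%. In U-CH1, limma called 0 of the 10, with CHPF alone at an unadjusted p under 0.05, where 1.27% of all genes were called (0.913% higher and 0.359% lower) and 10.8% had an unadjusted p under 0.05. The median there was 0.43, beside 0.04 over all genes. The U-CH1 TNF array lay above all 3 controls for 3 genes (30.8% of all genes) and below all 3 for 2 (23.4%). Across both lines 1 of 10 passed, CHPF, where 1.55% of all genes rose, 0.930% fell and 2.48% changed in either direction; at an unadjusted p under 0.05, 2 were higher and 3 lower, against 15.3% of all genes in either direction. Quantile normalization moved the share of rises among all genes called across both lines to 51.4%, against 62.6% in the values as deposited. XYLT1 had a log2 of -2.44 there and an adjusted p of 0.0921; a difference between the lines counts as error in that model, and the mean of both TNF effects taken from the 4 group means, where it does not, had an adjusted p of 0.000195. The TNF array was above all controls in both lines for CHPF, CHST11 and XYLT2 (15.0% of all genes) and below in both for XYLT1 and CHSY3 (8.85%). In the test of the difference between the lines 1 of 10 was lower, XYLT1, where 0.330% of all genes were lower, 0.200% higher and 0.530% differed in either direction; at an unadjusted p under 0.05, 5 of 10 were lower, against 7.36% of all genes in either direction.

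**Figure D2:**
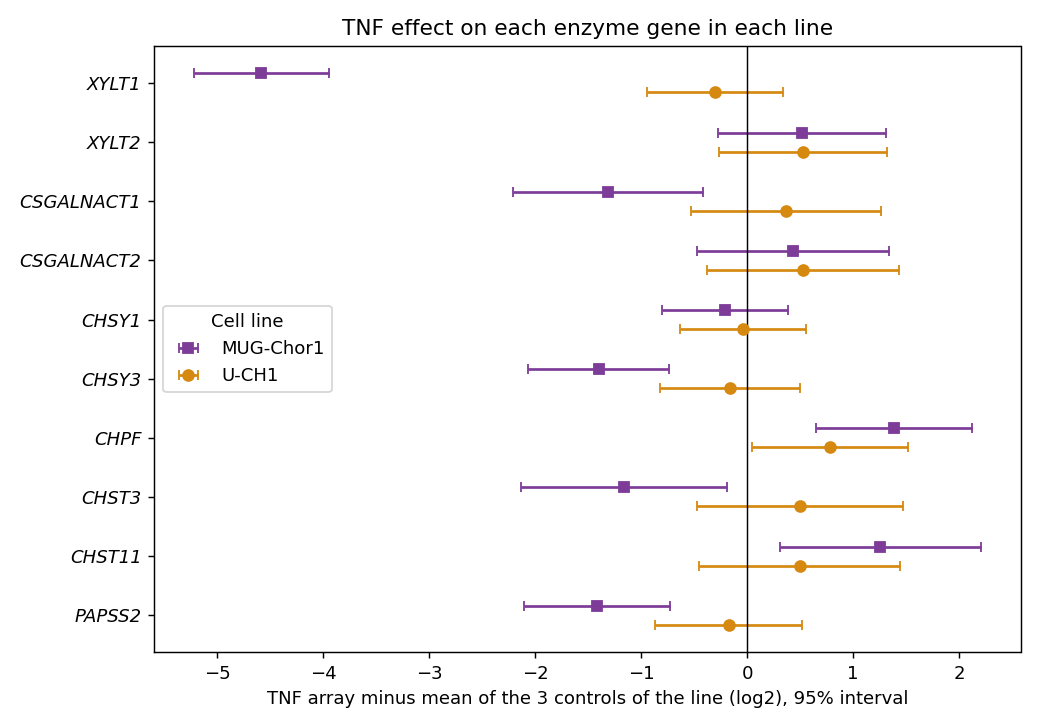
For each gene the horizontal axis gives the TNF array minus the mean of the 3 controls of the same line (log2) with its 95% interval, in purple squares for MUG-Chor1 and orange circles for U-CH1. XYLT1 at -4.58 in MUG-Chor1 lies outside the range of every other point, and its interval does not meet that of U-CH1.

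Before any TNF, the lines already differed in this set. Of the 10 enzymes 4 were higher in MUG-Chor1 controls than in U-CH1 controls and 0 were lower (limma, adjusted p under 0.05), where 10.3% of all genes were higher, 8.57% lower and 18.9% either; at an unadjusted p under 0.05, 5 were higher and 1 lower, against 31.7% of all genes in either direction. The arrays of the lines did not overlap for 5 genes that were above in MUG-Chor1 (18.1% of all genes) and for 1 below, CHSY1 (18.2%). CSGALNACT1, the chain-starting enzyme, averaged 3.59 ± 0.13 in MUG-Chor1 controls and 2.25 ± 0.62 in U-CH1 controls (SD, n = 3 each), a 2.54-fold difference (log2 1.35 ± 0.29, SE; limma, adjusted p = 0.00842). It held when each control was left out in turn, though U-CH1 controls 1 and 3 lay below 2.57, so the size of the difference is uncertain. CHST3, a sulfotransferase, averaged 6.80 ± 0.26 in MUG-Chor1 and 5.78 ± 0.67 in U-CH1 controls (SD, n = 3 each), 2.02-fold higher (limma, adjusted p = 0.0451). XYLT1 averaged 9.45 ± 0.14 in MUG-Chor1 and 8.72 ± 0.27 in U-CH1 controls, 1.66-fold higher (limma, adjusted p = 0.0316). CHSY3 averaged 4.86 ± 0.33 in MUG-Chor1 and 4.18 ± 0.06 in U-CH1 controls, 1.60-fold higher (limma, adjusted p = 0.0471). The calls of CHST3, XYLT1 and CHSY3 ended when single controls were left out, in 5, 4 and 5 of 6 fits, with adjusted p up to 0.121, 0.120 and 0.169. CHST3 was also lost without the filter (adjusted p = 0.0617) and CHSY3 after quantile normalization (adjusted p = 0.0755). CHST11 (5.10 ± 0.61 in MUG-Chor1 and 4.17 ± 0.33 in U-CH1 controls; adjusted p = 0.0569, or 0.0405 without MUG-Chor1 control 1) and CHSY1 (5.02 ± 0.07 in MUG-Chor1 and 5.55 ± 0.20 in U-CH1 controls; adjusted p = 0.0810) did not pass. CHPF, PAPSS2, XYLT2 and CSGALNACT2 differed by 0.12, 0.20, -0.21 and -0.48 (limma, adjusted p between 0.291 and 0.783); without U-CH1 control 1, CSGALNACT2 was called lower in MUG-Chor1 (-0.83, adjusted p = 0.0398).

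**Figure D3:**
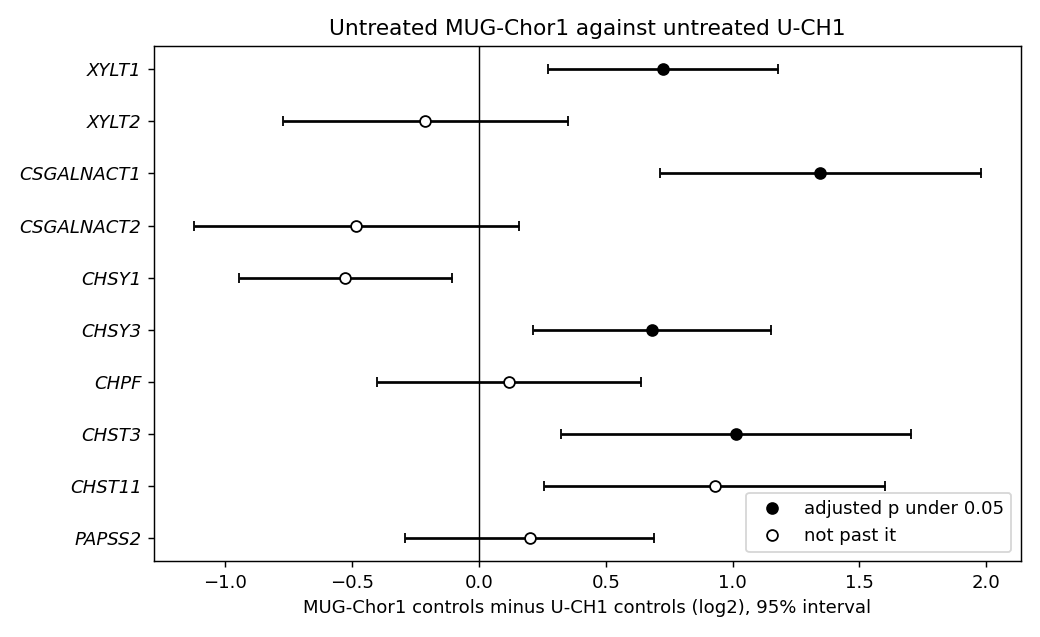
The horizontal axis gives the mean of the MUG-Chor1 controls minus that of the U-CH1 controls for each gene (log2) with its 95% interval; filled dots passed the adjusted p of 0.05. The 4 filled dots, from 0.68 to 1.35, all lie above 0.

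The other genes of the pathway were looked at through lists chosen with earlier results of these data in view. Next to the 10 enzymes, 26 tested genes complete the linker, sulfate the chain, or supply sulfate and sugar nucleotides. Of these 26, limma called 0 across both lines (9 higher and 2 lower at an unadjusted p under 0.05, against 15.3% of all genes). In MUG-Chor1 2 were called, both higher (1.47% of all genes), with 7 higher and 2 lower unadjusted, against 12.6% of all genes. In U-CH1 0 were called (2 higher and 1 lower unadjusted, against 10.8% of all genes). The median TNF difference of these genes was 0.13 across both lines and 0.27 in MUG-Chor1. UST, a uronyl sulfotransferase, rose by 1.61 in MUG-Chor1 (limma, adjusted p = 0.0177), and UAP1, which makes the UDP-N-acetylhexosamine precursors, by 1.78 (adjusted p = 0.00553); both were named because they are the only 2 called, after their values were seen. The call of UST ended without MUG-Chor1 control 1 (adjusted p = 0.0544). Of the linker genes other than the xylosyltransferases 0 of 5 passed across both lines, B4GALT7, a linker galactosyltransferase, having the smallest p (0.70, limma adjusted p = 0.170). Of the 8 other sulfotransferases and epimerases 0 passed, the closest being the epimerase DSEL (1.40, adjusted p = 0.0520). PAPSS1, the other PAPS synthase, was at -0.92 (adjusted p = 0.0682). In the comparison of control lines, 8 of the 26 were lower in MUG-Chor1 (8.57% of all genes) and 1 higher (10.3% of all genes). Among the lower were CHST15 at -2.43, UST at -1.63 and the sulfate transporter SLC26A2 at -1.42 (limma, adjusted p = 0.000511 for UST). CHST15 read 2.03 on MUG-Chor1 control 3, under 2.57, so the size of its difference is uncertain.

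**Figure D4:**
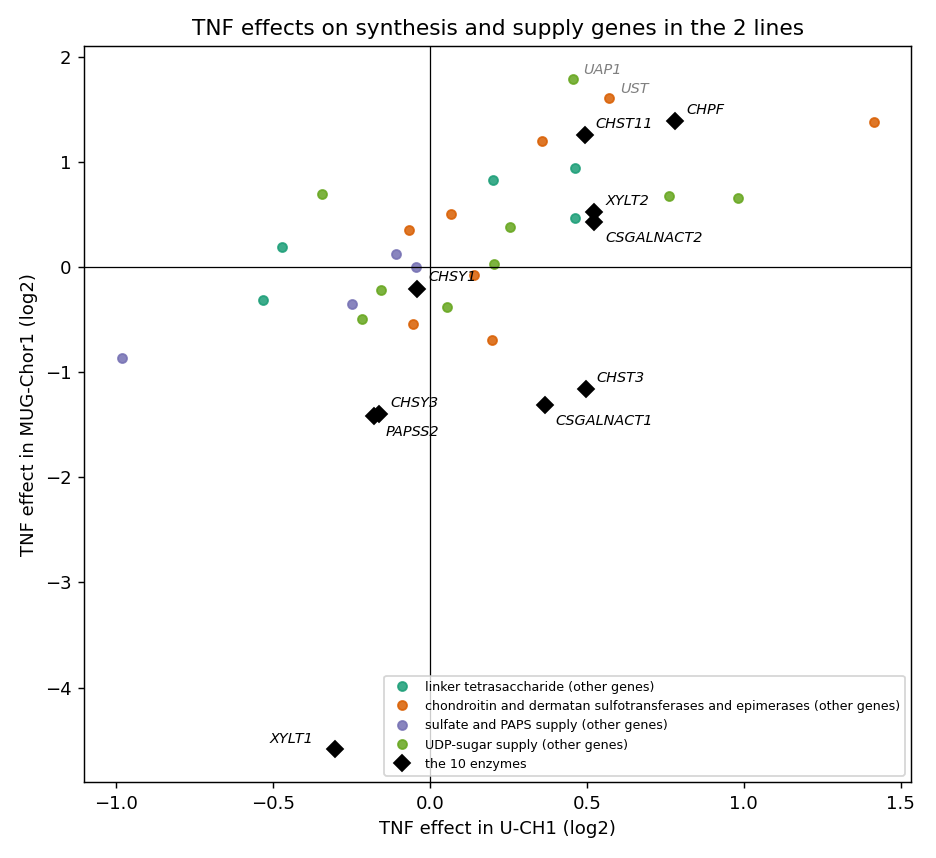
Each point is a gene, with its TNF difference in U-CH1 on the horizontal axis and in MUG-Chor1 on the vertical axis (both log2); black diamonds are the 10 enzymes and coloured dots the other pathway genes by list. XYLT1 lies at -4.58 on the vertical axis, apart from the other pathway genes, while UAP1 and UST sit at the top.

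Of 13 tested chondroitin and dermatan sulfate core proteins 2 fell (0.930% of all genes) and 1 rose (1.55%) across both lines. In MUG-Chor1 1 fell (1.41% of all genes) and 1 rose (1.47%). The rise was that of DCN, at 3.11 on the MUG-Chor1 TNF array. Its MUG-Chor1 controls were all below 2.57 (1.46 to 1.58), so no size is given. The fall was that of ACAN, the aggrecan core protein, by 4.09 (limma, adjusted p = 0.000216). ACAN read 4.33 on the MUG-Chor1 TNF array, against 8.16, 8.34 and 8.75 on the MUG-Chor1 controls, and 7.93 on the U-CH1 TNF array, against 9.07, 8.29 and 8.78 on the U-CH1 controls. So on the MUG-Chor1 TNF array the core protein and XYLT1, which starts its chains, were both far below their controls. The other 2 called across both lines were EPYC, a small leucine-rich proteoglycan, at -3.07 and CD74, an invariant chain that can carry chondroitin sulfate, at 1.48. EPYC was at -1.43 in MUG-Chor1 (limma, adjusted p = 0.146) and -4.70 in U-CH1 (adjusted p = 0.00109). Its value across both lines therefore rests mostly on the U-CH1 TNF array. EPYC read 2.25 on the MUG-Chor1 TNF array, under 2.57, so its sizes in MUG-Chor1 and across both lines are uncertain. ACAN, at -2.43 across both lines, was at -0.78 in U-CH1 (limma, adjusted p = 0.463). Across both lines the calls of ACAN, EPYC and CD74 ended in 7, 4 and 4 of 8 fits that left out 1 array, with adjusted p up to 0.463, 0.146 and 0.145. Of 10 tested heparan sulfate synthesis genes 1 rose across both lines, where 1.55% of all genes rose. This was HS3ST2, a sulfotransferase (limma, adjusted p = 0.0124), with a call that ended without the MUG-Chor1 TNF array. It read 3.81 on the MUG-Chor1 TNF array, against 1.71 to 2.43 on the MUG-Chor1 controls, and 3.55 on the U-CH1 TNF array, against 2.40 to 2.55 on the U-CH1 controls. Since all 6 controls were below 2.57, it entered the test only through the TNF arrays, and no size is given. Of 5 tested keratan sulfate genes 1 rose across both lines (1.55% of all genes), the galactosyltransferase B4GALT1 at 1.00 (limma, adjusted p = 0.0459). The B4GALT1 call ended in 7 of 8 fits that left out 1 array, with log2 0.58 to 1.42. Limma called 0 of the 9 tested chondroitin sulfate degradation genes across both lines. At an unadjusted p under 0.05, 3 were higher and 1 lower, against 15.3% of all genes in either direction. IDUA, a lysosomal hydrolase, had the smallest p (1.08, limma, adjusted p = 0.0853).

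Cell type markers moved on the same array as XYLT1, and some also on the U-CH1 TNF array. The mean of 10 chordoma and notochord markers was 4.91 on the MUG-Chor1 TNF array, against 6.58 to 6.82 on the MUG-Chor1 controls. On the U-CH1 TNF array it was 6.21, against 6.55 to 6.84 on the U-CH1 controls. In MUG-Chor1 6 of the 10 fell, TBXT, the notochord transcription factor, among them, where 1.41% of all genes fell. In U-CH1 0 passed and 3 were lower at an unadjusted p under 0.05, against 10.8% of all genes in either direction. Across both lines 3 fell, KRT19, SOX5 and TBXT, where 0.930% of all genes fell. Those calls ended in 1, 4 and 5 of 8 fits that left out 1 array. The mean of 8 cartilage markers was 3.48 on the MUG-Chor1 TNF array, against 4.95 to 5.35 on the controls. In MUG-Chor1 4 of the 8 were lower, where 1.41% of all genes fell. On the U-CH1 TNF array the cartilage mean was 4.79, against 5.21 to 5.36 on the U-CH1 controls, with 0 of 8 called. Across both lines 3 fell, ACAN, COL11A1 and HAPLN1, where 0.930% of all genes fell. These calls ended in 7, 6 and 1 of 8 fits that left out 1 array. For 7 fibroblast markers the mean was 5.47 on the MUG-Chor1 TNF array, against 3.88 to 4.74 on the controls. In MUG-Chor1 3 of the 7 were higher (FAP, LUM and DPP4), where 1.47% of all genes rose. The other 4 lay below their MUG-Chor1 control means, and the median difference of the 7 there was -0.07. On the U-CH1 TNF array the fibroblast mean was 4.48, against 4.10 to 4.28 on the U-CH1 controls, with 0 of 7 called. Across both lines 1 of the 7 rose, DPP4, where 1.55% of all genes rose. That call ended in 6 of 8 fits that left out 1 array. FAP exceeded 2.57 on no array but that of MUG-Chor1 with TNF (5.71), its MUG-Chor1 controls lying between 1.63 and 2.29. FAP was therefore tested only because of that array, so no size is given for it, and the raised MUG-Chor1 mean includes it. For leukocytes, the mean of 5 tested markers was 3.91 on the MUG-Chor1 TNF array, against 3.56 to 3.82 on the controls, and 4.06 on the U-CH1 TNF array, against 3.57 to 3.67 on the U-CH1 controls. Across both lines 2 of these 5 rose (limma), CD68 by 0.84 and ITGAM, where 1.55% of all genes rose. ITGAM read 2.10 to 2.21 on the MUG-Chor1 controls, under 2.57, so no size is given for it. Both calls ended in 7 of 8 fits that left out 1 array. PTPRC, CD3E and CD163 were at or below 2.57 on every array. For endothelial cells, the mean of 4 was 2.95 on the MUG-Chor1 TNF array, against 3.65 to 3.84 on the controls. On the U-CH1 TNF array it was 3.04, inside its controls (2.99 to 3.20). In MUG-Chor1 only KDR, a VEGF receptor, fell (-2.37, limma, adjusted p = 0.0121), where 1.41% of all genes fell. There 1 of the 4 lay above its control mean. The part of these markers in the MUG-Chor1 results for XYLT1, CHSY3 and PAPSS2, and in that for CHPF across both lines, was not tested.

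The genes whose pattern over the 8 arrays was most like that of CHPF were MAP3K21 (Pearson r 0.980), CYB5R3 (0.974), C1QTNF1 (0.967), ZBTB21 (0.966) and CREG1 (0.959). For XYLT1, a search added after its values were seen gave LRP5 (0.972), SELENBP1 (0.967), ODAD3 (0.966), PRICKLE1 (0.963) and PALLD (0.963). These are descriptions over 8 arrays that share 2 lines, and for XYLT1 they rest largely on the single MUG-Chor1 TNF array.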

How the data were processed

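Total RNA of 8 samples was measured on 1-colour whole-transcript arrays. The deposited log2 values were made by the authors with RMA and Transcriptome Analysis Console, which the submitters' processing notes name without versions or roles. The sources used here state no logarithm base; log2 is inferred from RMA and from a range of 0.0648 to 12.7. Since RMA usually equalises array distributions, a shift common to every gene could not be seen. The array medians still ran from 2.52 to 2.63, so small differences between arrays remain in the values used. The table held 53617 probe sets, of which 23871 had 1 symbol in the platform annotation, 1842 several and 27904 no entry. Entrez identifiers matched 22569 of them to RefSeq names (GRCh38.p14), and 90 symbols were updated. For 632 genes with more than 1 probe set the brightest on average was kept. CHPF2 is not analysed here.

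Tests used limma 3.58.1 in R 4.3.3, two-sided, with p-values adjusted by Benjamini-Hochberg over 16986 genes. TNF across both lines came from a model of line and TNF; other comparisons came from 4 group means, where only the 6 controls inform the spread. All 10 enzymes are described; of each gene list up to 4 genes called across both lines are named, or the one with the smallest p, and for CHPF the 5 most alike genes. The members and lists were chosen with earlier results of these data known. The fits were tested on simulated data with known changes of log2 1 and 2. Across both lines they called 41% and 87% of these. In U-CH1 they called 4% and 64%, in MUG-Chor1 1% and 54%, and between control lines 29% and 77%. For the difference of the TNF effects they called 0% of either size. False calls made up as much as 8.11% of the simulated calls, in U-CH1. The simulated lines shared a common baseline, and fewer genes were called than in the data (110 against 3209 between control lines). Recovery after adjustment depends on how many genes change, so these shares do not give the sensitivity of the real tests. A gene that did not pass is not shown to be unchanged. Alternatives covered the filter, probe sets, normalization, variance model, threshold, samples in the fit and leaving out arrays. The number of arrays limits the precision. Without scanner files, a batch of arrays and TNF cannot be told apart.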

Additional observations from a re-analysis of the deposited data

Results flagged for a closer look

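The TNF effect on XYLT1 differed between the lines by -4.28 (log2, MUG-Chor1 minus U-CH1; 95% interval -5.18 to -3.37; limma interaction, adjusted p = 0.00166): it read 4.87 on the MUG-Chor1 TNF array, against 9.31 to 9.60 on the MUG-Chor1 controls, and 8.42 on the U-CH1 TNF array, against 8.52 to 9.02 on the U-CH1 controls. The TNF effect on ACAN, the aggrecan core protein, differed by -3.31 (limma interaction, adjusted p = 0.0211), with a call that ended without U-CH1 control 3 (adjusted p = 0.0547). Each rests on 1 TNF array a line.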

How the results depend on the processing

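The counts of enzymes called were 1 across both lines, 3 in MUG-Chor1, 0 in U-CH1, 1 for the difference and 4 between control lines. No called enzyme changed sign in an alternative fit. Some that were not called did, among them CSGALNACT1 (-1.31 to 0.37) and CHST3 (-1.16 to 0.50) across both lines. Across both lines the count was 2 at an adjusted p under 0.1 and with the mean of the 2 TNF effects from 4 group means (CHPF and XYLT1), and 0 without the filter and after quantile normalization. Leaving out 1 array gave 0 to 3 there (3 without the U-CH1 TNF array), 1 to 4 in MUG-Chor1, 0 in U-CH1, 1 for the difference and 1 to 4 between control lines. The 4 MUG-Chor1 arrays alone gave 1, XYLT1. Over all genes, the 422 calls across both lines became 815 at an adjusted p under 0.1, 739 with 4 group means and 199 to 489 with 1 array left out. The other counts of 216 in U-CH1, 489 in MUG-Chor1 and 90 for the difference became 386, 741 and 151 at an adjusted p under 0.1, and 296 with the 4 MUG-Chor1 arrays alone; leaving out 1 array gave 104 to 329, 284 to 664 and 38 to 152, and 2123 to 3090 for the 3209 between control lines. The causes were not tested.

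Controls share numbers, but nothing says that these mark a batch. Deviations from the group means correlated at r of 0.043, -0.057 and 0.163 for same-numbered controls. For differently numbered controls r ran from -0.146 to 0.141. These few values cannot decide whether the numbers pair the samples. With the replicate block, 4 enzymes were called between control lines, CHST11 (adjusted p = 0.0226) in and CHSY3 (adjusted p = 0.0520) out. Without probe-level signal over background, low values such as those of CSGALNACT1 cannot be told from background.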
